A study of Drosophila melanogaster with 20 samples.

Results

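Eye imaginal discs of the Drosophila line Mut-1, which expressed human C96Y proinsulin, were compared with those of the lines WT-6 and WT-24, which expressed wild-type human proinsulin. The comparison took every array labelled with 1 of these lines, 4 for Mut-1 and 4 for each wild-type line, which made 12 of the 20 arrays of the study. The other arrays came from Mut-101, another line with C96Y proinsulin (4 arrays), and from non-transgenic larvae (4 arrays). Imaginal discs are folded epithelia of the larva that form adult structures, here the compound eye, and they were dissected from larvae of the third instar. Each line was sampled as 2 male and 2 female arrays, which the labels call biological replicates.

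Per the labels, all transgenic larvae carried GMR-GAL4 with a hemizygous UAS transgene and were kept at 25 °C, and GMR-GAL4 is also listed for the non-transgenic larvae. GMR-GAL4 drives transgenes in the cells behind the morphogenetic furrow, the front at which eye cells begin to differentiate, so the RNA also came from cells ahead of it, where the driver is not active. Mut-1 is a single transgenic line and the level of its transgene was not analysed here. An effect of the C96Y change therefore cannot be told apart from effects of transgene level, insertion or genetic background of that line. Discs were measured whole, so that fewer cells of a type and less RNA per cell cannot be told apart.

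Proinsulin is folded in the endoplasmic reticulum (ER), where disulphide bonds are formed by isomerases before the protein moves through the Golgi and is cut to insulin. The C96Y change removes a cysteine of such a bond. Misfolded protein in the ER activates the unfolded protein response (UPR), in which the sensors Ire1, Atf6 and PERK raise the production of chaperones, of degradation and transport factors and, through the factor ATF4, of amino acid supply. In the eye disc, photoreceptors R1 to R8 and then cone cells are recruited in order, largely by epidermal growth factor receptor (EGFR) signalling.

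Levels are given as linear array intensity units. Differences are log2 differences between Mut-1 and the mean of both wild-type lines with sex as a covariate, given with standard errors (SE) from limma, and a gene rose or fell only where the Benjamini-Hochberg adjusted p was under 0.05. Of 10262 probe sets tested, 1963 were called (19.1%), of which 1056 were higher in Mut-1 (10.3%) and 907 lower (8.84%). Against WT-6 alone 1520 were called (14.8%), 8.73% higher and 6.08% lower, and against WT-24 alone 1538 (15%), 8.15% higher and 6.84% lower. A total of 991 (9.66%) were called with the same sign against the mean and against each line, 615 of them higher (5.99%) and 376 lower (3.66%). The 4 Mut-1 arrays did not overlap with the 8 wild-type arrays at 1032 probe sets (10.1%), with Mut-1 higher at 642 (6.26%) and lower at 390 (3.8%).

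Some arrays held RNA of neighbouring organs. The ring gland gene spok lay above 1000 intensity units on 8 of the 20 arrays, none from Mut-1 and 3 from the wild-type lines (WT-6 female replicate 1, WT-24 male replicate 2 and WT-24 female replicate 2). On these 12 arrays its values ran from 25.8 to 149 in Mut-1 and from 28.7 to 6407 in the wild-type lines. The fat body gene Lsp2 lay above 5000 units on 2 arrays, of which WT-24 female replicate 1 (7750) was the 1 within the comparison, and ran from 1006 to 3344 in Mut-1. Without the ring gland arrays 1309 probe sets were called (742 higher, 567 lower), without the fat body arrays 1870, and without either 711 (474 higher, 237 lower), which left 4 wild-type arrays. In that last setting WT-24 was left with male replicate 1 alone, so all its counts rest on 1 WT-24 array. The part of fewer arrays and of the other tissues in these drops was not tested separately. When 1 mean per line replaced the single arrays, so that the spread came from WT-6 against WT-24, 112 probe sets were called. With arrays centred on their medians the split moved to 831 higher and 1115 lower (42.7% higher, against 53.8%), so small changes shared by many genes depend on the scaling.

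Markers of the eye disc were read as a check of the tissue. The 13 eye disc markers summed to between 41236 and 42069 units on the Mut-1 arrays and to between 41907 and 48673 on the wild-type arrays. Of these markers 1 rose (boss) and 5 fell (so, gl, elav, sev and lz), while ey, toy, eya, Optix, ato, chp and ro were not called.

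Mut-1 was also compared directly with Mut-101, the other C96Y line. The contrast held the means of these lines only, while its estimate of the spread came from all 20 arrays. It called 403 probe sets (3.93%), 246 higher (2.4%) and 157 lower (1.53%) in Mut-1. Of the 615 probe sets above both wild-type lines 189 were also above Mut-101, and of the 376 below both 79 were also below it. As the same Mut-1 arrays enter both comparisons, this overlap is a description and no evidence of a stronger response. On the first principal component of all arrays, which held 19.8% of the variance, Mut-1 lay between 10.5 and 21.2, Mut-101 between 4.8 and 11.3 and all other arrays below 0. Against the wild-type lines Mut-101 itself gave 816 calls (7.95%), 5.08% higher and 2.87% lower, and since both comparisons share the wild-type arrays their counts are only set side by side. Without Mut-1 male replicate 2 the direct test called 254, without the ring gland arrays 103, without line WT-6 360, without WT-24 337, and with 1 mean per line 2. Both male Mut-101 arrays held ring gland transcripts (spok at 1646 and 2354 units), while no Mut-1 array did. The 103 calls therefore rest on the female arrays of Mut-101 only, and the part of ring gland tissue in the direct test was not tested.

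The largest changes among the probe sets tested were rises. More than 2-fold differences were called for 54 probe sets above the wild-type lines (0.526%) and for 15 below them (0.146%). Against each wild-type line as well, all 54 of the former and 9 of the latter (0.0877%) were called, and 38 and 6 of these also differed from Mut-101 in the same direction. The median of the 54 rises was 1.48 and 1.77 on the log2 scale on the male Mut-1 arrays and 1.2 and 1.43 on the female ones. The median of the 9 falls was -1.74 and -2.24 on the male arrays and -0.67 and -1.83 on the female ones, so that Mut-1 female replicate 1 showed the smallest response in both sets.

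CG14545, a gene with no name beyond its identifier, had 2049 and 3087 units on the male Mut-1 arrays and 1202 and 1242 on the female ones. The 8 wild-type arrays lay between 48.3 and 62.6 with a median of 56.0. All Mut-1 arrays were thus far above all wild-type arrays, and the difference was 4.97 ± 0.196 on the log2 scale (SE, limma adjusted p = 1.2e-11). Mut-101 stood between them at 362 ± 196 (SD, n = 4), and Mut-1 exceeded it by 2.45 ± 0.226. The fold over wild-type, 31.3, is approximate because the wild-type level is low and no background level was given. Probe sets were chosen for testing by their mean over all arrays, Mut-1 included, and the lowest geometric mean tested was 157.8 units. All wild-type and non-transgenic arrays of CG14545 lay below this level, the latter at no more than 71.6. CG14545 was therefore tested only because of its high values in Mut-1 and Mut-101. The same holds for CG9313, reb and CG13272, which are described below. CG10184, also described below, likewise owed its place in the test to its Mut-1 values, although the Mut-101 mean lay above 157.8 units. This list of genes may not be complete.

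CG9313, also known only by its identifier here, behaved alike. Its Mut-1 values were 1404 and 2003 in males and 1065 and 1478 in females, against 50.2 to 61.6 in wild-type discs (median 54.4). CG9313 values of the groups lay 4.71 ± 0.142 apart on the log2 scale (limma adjusted p = 2.57e-13), and Mut-101 stood at 433 ± 117.

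The gene reb acts with exp in the deposition of chitin, the polysaccharide of the insect cuticle. It had 1074 and 1729 units in male and 1141 and 1370 in female Mut-1 discs, and 84.8 to 114 in wild-type discs (median 105). The rise of 3.69 ± 0.138 (limma adjusted p = 6.3e-12) was 1.92 ± 0.159 above that of Mut-101. Cda5, which encodes a chitin deacetylase, reached 1859 and 2017 in males and 1337 and 1894 in females against 261 to 480 in wild-type discs, a rise of 2.20 ± 0.16. Cda5 was the largest rise that Mut-1 did not show above Mut-101 by the test, with 1387 ± 336 units there and a difference of 0.37 ± 0.185 (limma adjusted p = 0.375).

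The activin-type ligand gene daw, a member of the TGF-beta superfamily, had 1312 and 1988 units in males and 917 and 1306 in females. Wild-type arrays lay between 146 and 194 with a median of 165. The groups did not overlap, and daw was higher by 3.01 ± 0.195 (limma adjusted p = 6.19e-09), and by 1.27 ± 0.226 than in Mut-101. Among 16 genes tested in the list for TGF-beta and activin signalling daw and ImpL2 rose, and Actbeta and mav fell. ImpL2 encodes a secreted insulin-binding protein and is counted again among the insulin genes below. The receptors and transducers babo, put, wit, tkv, Smox, Mad and Med were not called. Actbeta, another activin-type ligand gene, had 203 to 349 units in Mut-1 and 248 to 550 in wild-type discs, so the groups overlapped, and its call ended without any 1 of 3 Mut-1 arrays. Without the ring gland arrays neither fall in this list was called. Actbeta and mav both lie on chromosome 4, whose 55 tested genes had a median of -0.13 with 17 lower and 1 higher. The part of this in their falls was not tested.

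GstE6 encodes a glutathione S-transferase of the insect epsilon class, which conjugates reactive compounds. Its values were 1647 and 2215 in males and 1389 and 1480 in females, against 137 to 926 in wild-type discs with a median of 185. A single wild-type array, WT-24 male replicate 2, held the 926, and every Mut-1 array was above it. The rise was 2.89 ± 0.337 (limma adjusted p = 9.58e-06), and the excess over Mut-101 was 1.80 ± 0.389.

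The remaining large rises belonged to genes with identifiers only. CG8620 rose by 2.40 ± 0.198, CG10184 by 2.30 ± 0.139, CG13272 by 2.25 ± 0.112 and CG17104 by 2.13 ± 0.185, and for each of them the 4 Mut-1 arrays were above all 8 wild-type arrays. CG10184 was among the genes farthest above Mut-101 (1.77 ± 0.16), where it stood at 184 ± 33.8 units against 640 ± 190 in Mut-1.

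**Figure D1:**
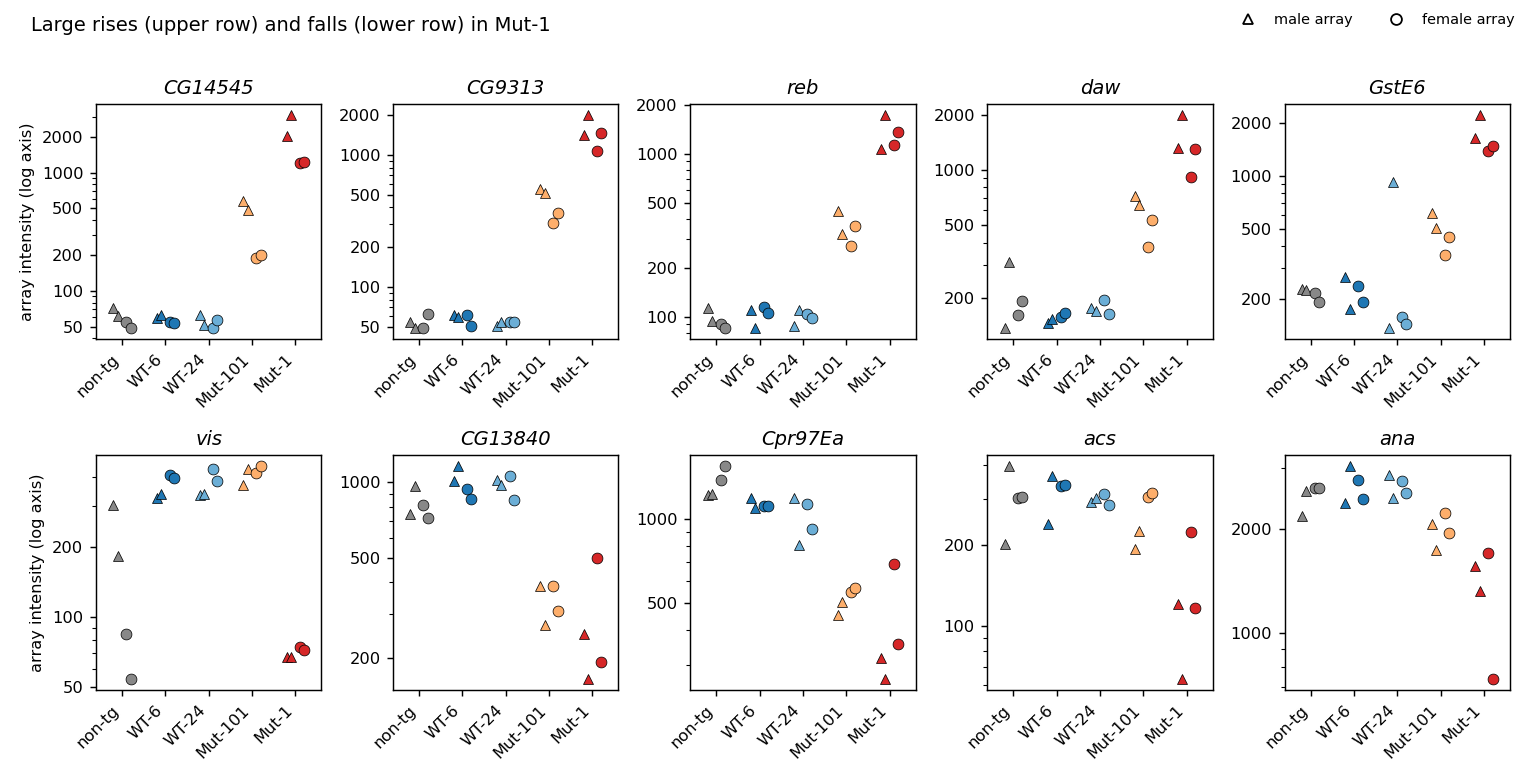
Array intensity (log axes) of 5 genes with large rises (upper row) and 5 with large falls (lower row) in Mut-1, by line, with triangles for male and circles for female arrays. Mut-101 lies between the wild-type lines and Mut-1 for the rises, while for vis it lies with the wild-type lines and the 4 non-transgenic arrays run from 54.0 to 301, below the lowest wild-type array.

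The falls were smaller and less even among the Mut-1 arrays. The homeobox gene vis had 67.3 and 67.2 units in males and 74.6 and 72.3 in females, against 324 to 433 in wild-type discs (median 361). The difference was -2.38 ± 0.288 (limma adjusted p = 1.39e-05), and it was -2.56 ± 0.333 from Mut-101, where the level was 415 ± 33.1. Non-transgenic discs had 156 ± 112 units (SD, n = 4), and from them Mut-1 did not differ by the test (limma adjusted p = 0.109), with single non-transgenic arrays between 54.0 and 301.

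CG13840 had 249 and 165 units in males and 500 and 193 in females, against 846 to 1158 in wild-type discs, and fell by 1.96 ± 0.21. The cuticle protein gene Cpr97Ea had 317 and 266 in males and 691 and 356 in females, against 805 to 1192, and fell by 1.48 ± 0.159. For both genes Mut-1 female replicate 1 was the array nearest to wild-type, with no overlap of the groups. Neither differed from Mut-101 by the test, where they stood at 339 ± 58 and 518 ± 51 units.

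Other falls were seen against Mut-101 as well. For acs the Mut-1 values were 121 and 62.8 in males and 224 and 116 in females, against 241 to 363 in wild-type discs, a difference of -1.37 ± 0.219, and of -1.11 ± 0.253 from Mut-101. CG13284 fell by 1.26 ± 0.16. The gene ana encodes a glycoprotein secreted by glia that holds neuroblasts in quiescence, and it fell by 1.06 ± 0.158, from 2649 ± 235 to 1330 ± 426 units. The Mut-1 female arrays differed most for ana, at 1703 and 736, and both were under the lowest wild-type value of 2367. Among the smallest of the 10 falls, wat, a fatty acyl-CoA reductase gene, fell by 0.90 ± 0.167 with overlapping groups. CG15212 fell by 0.91 ± 0.234, and its call ended without Mut-1 female replicate 2.

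**Figure D2:**
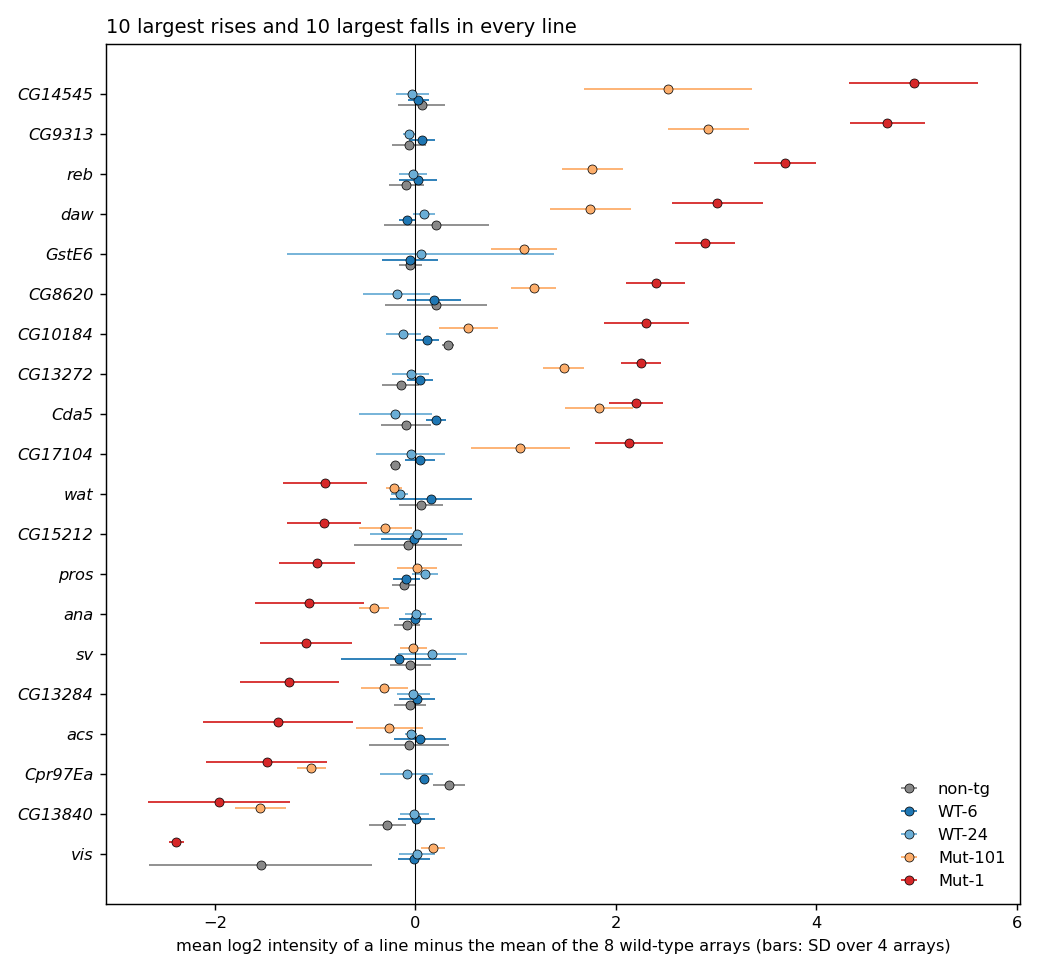
Mean log2 intensity of each line minus the mean of the 8 wild-type arrays for the 10 largest rises and 10 largest falls of Mut-1, with bars for the SD over the 4 arrays of a line. Mut-101 is between 0 and Mut-1 for every rise shown, and pros, sv and vis in Mut-101 lie near 0 or above it.

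Genes were then grouped by pathway in 25 lists, which are described by the number of members called and by the median log2 difference, beside 10.3% higher, 8.84% lower and a median of -0.006 over all probe sets tested. No list was tested as a set. The lists were chosen with earlier results of these data known.

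Most ER folding genes tested rose in Mut-1. Of 26 tested ER chaperones and folding enzymes (28 listed) 18 rose and 2 fell, with a median of 0.19, and 13 and 1 of these were called against both wild-type lines. Without the ring gland arrays 15 rose and 1 fell, without ring gland and fat body arrays 12 rose, with 1 mean per line 7 rose, and without any 1 array between 13 and 18 rose. Sil1, whose product exchanges nucleotide on the chaperone BiP of the ER, had 3696 and 4414 units in males and 3512 and 3762 in females. Wild-type arrays lay between 1460 and 1717 with a median of 1667, well below every Mut-1 array. The rise was 1.24 ± 0.0728 (limma adjusted p = 2.01e-09), and Mut-1 was 0.50 ± 0.0841 above Mut-101 (2732 ± 342).

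Ero1L, which reoxidises disulphide isomerases, had 2433 and 3430 units in males and 1898 and 2601 in females against 1095 to 1401 in wild-type discs. The groups did not overlap, with a rise of 0.98 ± 0.121 (limma adjusted p = 1.57e-05) and an excess of 0.52 ± 0.139 over Mut-101. Manf, which encodes a secreted factor made under ER stress, rose by 0.50 ± 0.047. CaBP1, a gene of a disulphide isomerase, rose by 0.40 ± 0.0378, and P58IPK, a gene of a BiP co-chaperone, by 0.60 ± 0.0588. All 3 were above Mut-101 too. Hsc70-3, which encodes BiP, had 16517 and 17048 in males and 16829 and 16017 in females, against 14041 to 15614. Its rise was small, 0.15 ± 0.0249 or 1.11-fold (limma adjusted p = 0.000383), without overlap of the groups, and its difference from Mut-101 was not called (limma adjusted p = 0.547). The members that fell, named after their values were seen, were CG14715 (-0.11) and CG9302 (-0.12), which was not called against WT-6.

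**Figure D3:**
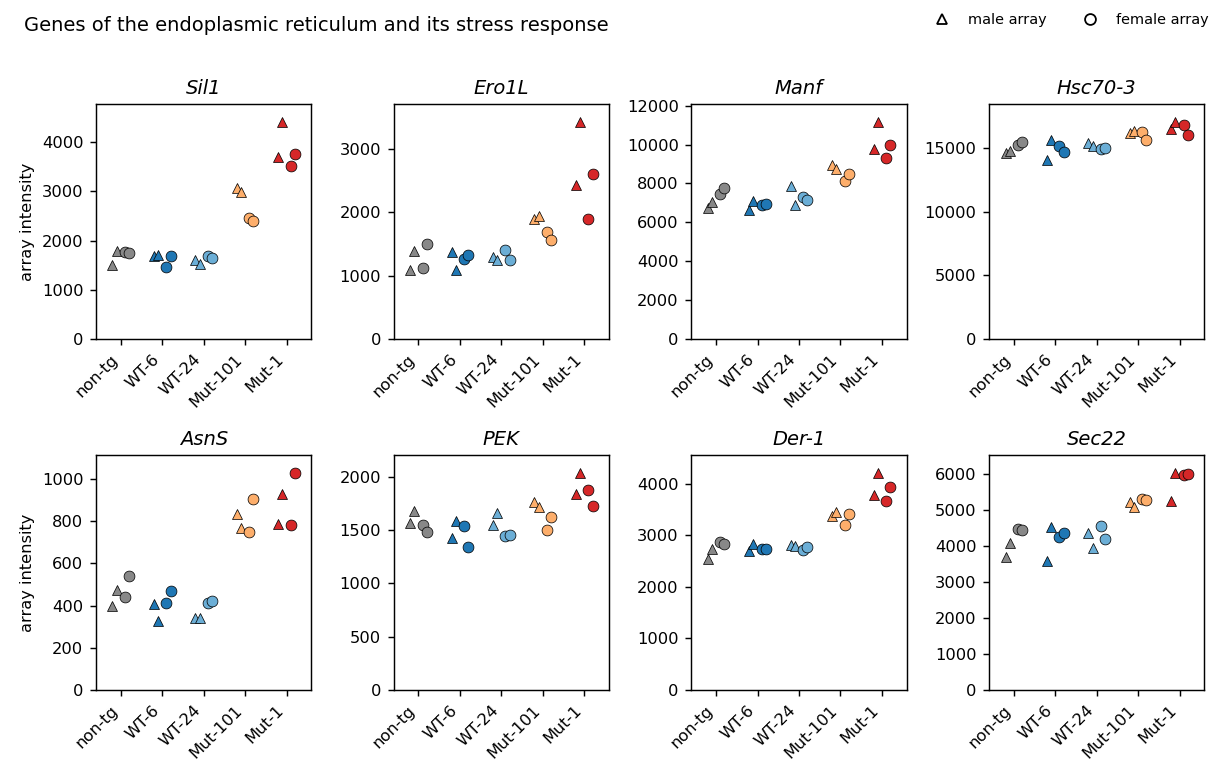
Array intensity (linear axes from 0) of 8 genes of the ER and its stress response by line, with triangles for male and circles for female arrays. All Mut-1 arrays of these genes lie above all wild-type arrays, by 1.11-fold for Hsc70-3 and 2.36-fold for Sil1.

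The sensors of the response were called only in part. Of 15 tested genes of the UPR sensors and the PERK-ATF4 branch 5 rose and 1 fell, with a median of 0.003. AsnS, the asparagine synthetase gene and a known ATF4 target in mammals, had 786 and 926 units in males and 780 and 1028 in females, against 325 to 470 in wild-type discs. It rose by 1.17 ± 0.0942 (limma adjusted p = 1.09e-07) without overlap of the groups. AsnS was not called above Mut-101 (813 ± 70.0 units there, difference 0.11 ± 0.109, limma adjusted p = 0.737). Gadd45, a stress-induced gene, rose by 0.64 ± 0.113, and PEK, the gene of the fly PERK kinase, by 0.32 ± 0.0471. Ire1 (0.07), Atf6 (-0.09) and crc (0.003), the gene of fly ATF4, were not called, and Xbp1 was not among the genes tested. The member that fell, aay, a serine synthesis gene named after its values were seen, was at -0.60 and was called against neither wild-type line alone (limma adjusted p = 0.0983 and 0.0513).

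Genes of amino acid supply were called higher or not called. Among 22 tested amino acid transporters and tRNA synthetases 14 rose and none fell, with a median of 0.17, and 7 were called against both wild-type lines. ValRS had 2674 to 3641 units in Mut-1 and 1554 to 2350 in wild-type discs and rose by 0.61 ± 0.0844. TrpRS (0.39 ± 0.0508) and HisRS (0.28 ± 0.0406) rose without overlap of the groups. None of the 22 was called against Mut-101. The count of rises was 8 without Mut-1 male replicate 2, 8 without the ring gland arrays, 5 without ring gland and fat body arrays and 0 with 1 mean per line.

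In ER-associated degradation, which moves misfolded proteins to the cytosol, 6 of 17 tested genes rose and 1 fell (median 0.04). Der-1, a gene of the retrotranslocation machinery, had 3787 and 4209 units in males and 3664 and 3937 in females. Wild-type discs held 2693 to 2821 units, a narrow range below all of these. Der-1 rose by 0.50 ± 0.0379 (limma adjusted p = 5.55e-08) and was 0.22 ± 0.0438 above Mut-101. Herp rose by 0.44 ± 0.0605 and Der-2 by 0.31 ± 0.0453. Of 26 proteasome genes 2 rose (Rpn3 at 0.17, Prosalpha3 at 0.10) and 1 fell (Rpt5 at -0.15), with a median of 0.008, and the calls of Prosalpha3 and Rpt5 each ended without 1 of 2 Mut-1 arrays.

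For entry into the ER and transport out of it, all calls were rises. Among genes for translocation into the ER and for glycosylation, 23 were tested, of which 9 rose and none fell (median 0.05), among them the signal peptidase genes Spase25 (0.23 ± 0.0344) and Spase12 (0.16 ± 0.0285) and the oligosaccharyl transferase gene Dad1 (0.18 ± 0.0317). Of 27 tested genes of COPI and COPII vesicles and ER to Golgi transport 15 rose and none fell, with a median of 0.19, and 11 were called against both wild-type lines. Sec22, a membrane fusion protein gene of this route, had 5237 to 6031 units in Mut-1 and 3579 to 4567 in wild-type discs, and rose by 0.46 ± 0.0534. Slh, the gene of a regulator of such fusion, rose by 0.50 ± 0.0566, while its other probe set was not called (0.20, limma adjusted p = 0.0848), and Tango14 rose by 0.45 ± 0.0555. Without the ring gland arrays 9 of the 27 transport genes and 7 of the 23 translocation genes rose, without ring gland and fat body arrays 5 and 2, and with 1 mean per line 1 and 0. None of either list was called against Mut-101.

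Most genes of glycolysis tested rose in Mut-1. Of 11 tested glycolysis genes 8 rose and 1 fell, with a median of 0.20, and also 8 rose without the ring gland arrays, 6 without ring gland and fat body arrays and 2 with 1 mean per line. Pfk, the gene of phosphofructokinase, which commits sugar to glycolysis, had 4386 and 4889 units in males and 4269 and 4577 in females, against 2701 to 3033 in wild-type discs. It rose by 0.64 ± 0.0409 (limma adjusted p = 5.18e-09) and was 0.23 ± 0.0472 above Mut-101. Ald1 rose by 0.31 ± 0.0373, with another probe set at 0.03, and Pgi by 0.27 ± 0.0308. The member that fell was sima, the hypoxia factor gene, named after its values were seen (-0.21, not called against WT-24).

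Of 55 respiratory chain and ATP synthase genes 15 rose and 1 fell (median 0.05), with ox at 0.36 ± 0.0422, RFeSP at 0.31 ± 0.0361 (another probe set at -0.01) and ATPsynCF6 at 0.30 ± 0.0349. This count depended on the scaling and on the arrays, with 7 rises after median centring, 9 without the ring gland arrays, 6 without ring gland and fat body arrays, 9 without Mut-1 female replicate 1 and 8 without Mut-1 female replicate 2. Cytosolic ribosomal protein genes were nearly flat, with 6 of 29 rising by 0.03 to 0.07 and none falling, and after median centring none of the 29 rose. Among 10 tested genes of sterol and fatty acid synthesis 4 rose and none fell (median 0.14), namely Hmgs (0.43 ± 0.0588), the regulator gene SREBP (0.37 ± 0.0397), its escort gene SCAP (0.17 ± 0.0384) and mino (0.19). SREBP and Hmgs were also above Mut-101.

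Glutathione S-transferases of the epsilon class held the largest rises of their list. Of 36 tested glutathione and redox genes 9 rose and 3 fell, with a median of 0.05. Besides GstE6, GstE5 had 426 to 682 units in Mut-1 and 205 to 306 in wild-type discs and rose by 1.06 ± 0.13, and GstE3, named after its values were seen, rose by 1.15 ± 0.318. GstD3 had 6251 to 6355 units in Mut-1 and 3698 to 6147 in wild-type discs, with a rise of 0.42 ± 0.0488. Its call rested on WT-6, since against WT-24 it was not called (0.13, limma adjusted p = 0.128), while Mut-1 was 0.63 ± 0.0563 above Mut-101. The genes of the oxidative stress regulators Keap1 and maf-S were not called, and cnc rose by 0.08. As these transferases have near-identical relatives, probe sets may share signal among them.

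Stress and death pathways outside the ER had calls in both directions or few of them. Of 15 heat shock proteins 2 rose, Hsp68 (0.31 ± 0.0867) and the mitochondrial chaperonin gene CG11267 (0.15 ± 0.0403). Neither reached a call against both wild-type lines, and both calls ended without 1 female Mut-1 array. Of 16 tested apoptosis genes 4 rose and 3 fell, with morgue at 0.17 ± 0.0376, Dark, the Apaf-1 gene, at 0.22 ± 0.0557 (another probe set at -0.07) and egr, the fly TNF gene, at -0.30 ± 0.053. The 4 rises fell to 2 without either of the Mut-1 replicates male 2 and female 2, to 1 without the ring gland arrays and to 0 without ring gland and fat body arrays. The death inducer gene grim was not called (0.20 ± 0.156), and rpr and hid were not among the genes tested. Of 15 JNK and regeneration genes 2 rose and 3 fell, among them bsk, the JNK gene, at -0.15 ± 0.0284 and Timp at -0.36 ± 0.0821. The rises were Gadd45 and kay (0.16), and hep, a JNK kinase gene, was not called (0.07) while another of its probe sets was lower (-0.256, limma adjusted p = 0.0037). Of 25 tested autophagy and lysosome genes ref(2)P, which encodes the cargo receptor p62, rose by 0.42 ± 0.051 without overlap of the groups. The lysosomal genes spin (-0.14) and CtsL1 (-0.06) fell with cathD (-0.09), named after its values were seen, and the call of CtsL1 ended without any 1 of 7 arrays. The Atg genes tested were not called.

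**Figure D4:**
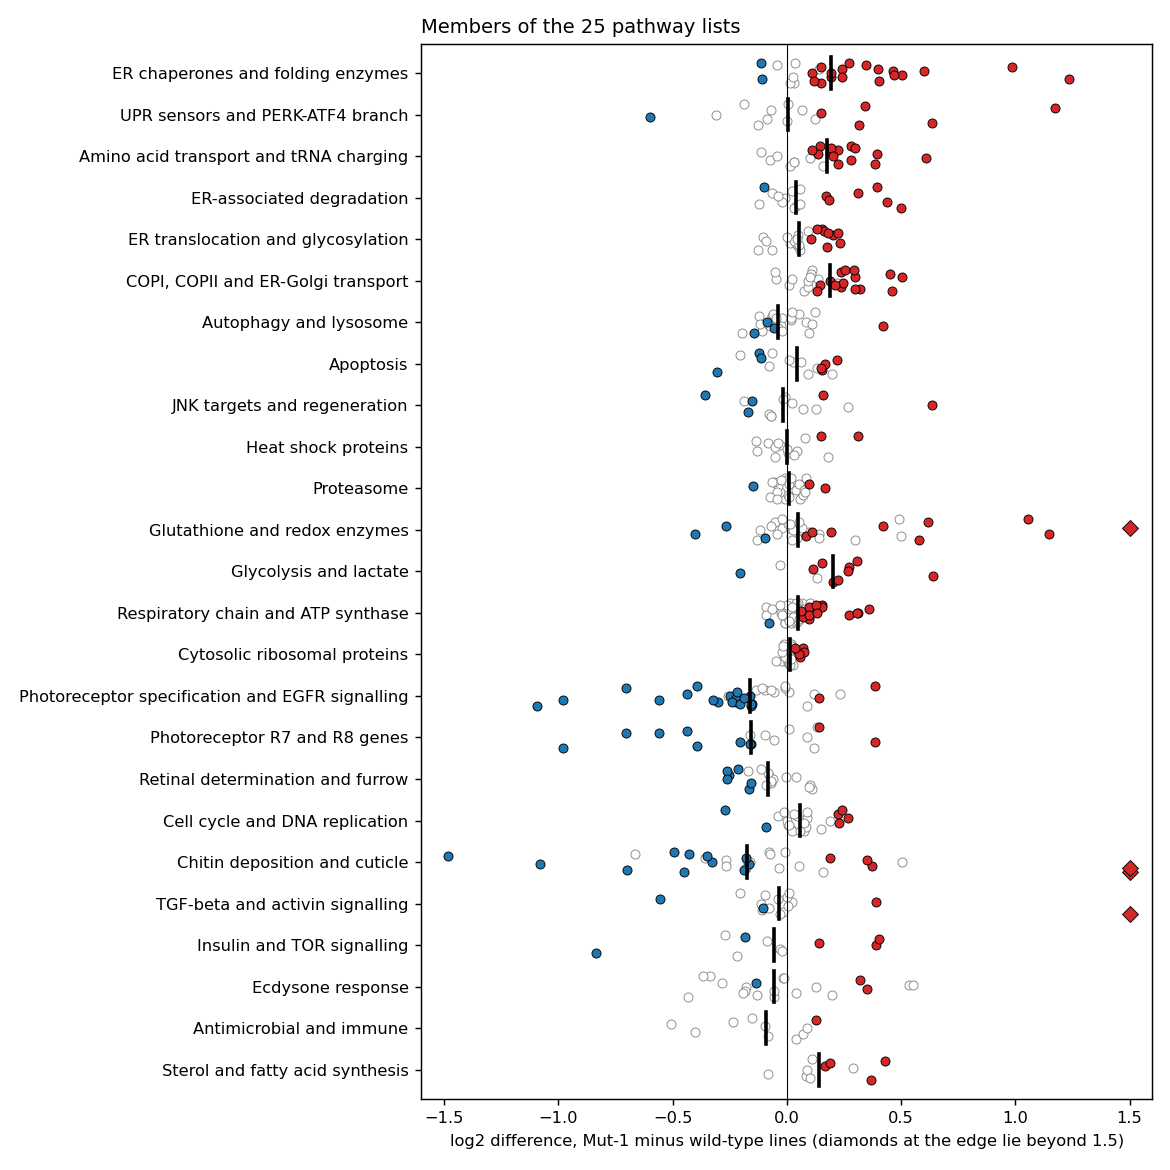
Log2 difference between Mut-1 and the wild-type lines for every tested member of the 25 pathway lists (1 point a gene), filled red where it rose and blue where it fell at an adjusted p under 0.05, open where not called, with a bar at the list's median. Diamonds at the edge are GstE6, reb, Cda5 and daw, and most filled points are red in the ER lists and blue in the photoreceptor lists.

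Most genes of photoreceptor development tested fell. Of 33 tested genes of photoreceptor specification and EGFR signalling (44 listed) 19 fell and 2 rose, with a median of -0.16, and 15 of the falls were called against both wild-type lines. Without any 1 array between 13 and 19 fell, without the ring gland arrays 13, without ring gland and fat body arrays 8, with 1 mean per line 0, and after median centring 21. Against Mut-101, 4 of the 33 were lower and none was higher. In the list of R7 and R8 genes, 15 of whose 17 members are also in the previous list, 8 fell and 2 rose.

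The homeobox gene pros, expressed in R7 and in cone cells, had 603 and 420 units in males and 793 and 584 in females. The wild-type arrays ran from 948 to 1404 with a median of 1159, all above Mut-1. The difference was -0.98 ± 0.124 (limma adjusted p = 2.1e-05), with -1.20 in males and -0.76 in females. Mut-101 (1177 ± 176) and non-transgenic discs (1068 ± 84.6) had means near the wild-type mean of 1161 ± 126, and Mut-1 differed from Mut-101 by -0.997 ± 0.143 (limma adjusted p = 0.000357).

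The Pax2 gene sv, which acts in cone cells and bristles, had 155 and 91.8 units in males and 195 and 129 in females, against 170 to 445 in wild-type discs (median 321). The groups overlapped by 1 Mut-1 female array, and sv fell by 1.09 ± 0.209 (limma adjusted p = 0.00124) and differed from Mut-101 by -1.07 ± 0.241. It lies on chromosome 4, whose 55 tested genes had a median of -0.13 with 17 lower and 1 higher, and the part of this in the fall of sv was not tested.

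The receptor gene sev, which specifies R7, was read within each sex, since male arrays lay below female ones in every line. Male Mut-1 arrays had 669 and 555 units and female ones 1213 and 879, each below the wild-type arrays of the same sex. It fell by 0.56 ± 0.0853 (limma adjusted p = 0.000151) and differed from Mut-101 by -0.61 ± 0.0985. Its ligand gene boss, expressed in R8, went the other way, with 621 and 714 in males and 570 and 614 in females against 403 to 548. It rose by 0.39 ± 0.0743 (limma adjusted p = 0.00129), and the difference from Mut-101 was not called (limma adjusted p = 0.0559). The other member that rose, sina, was called against WT-6 and not against WT-24.

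The zinc finger gene salr, of R7 and R8, had 1083 to 1150 units in Mut-1 and 1405 to 1652 in wild-type discs and fell by 0.44 ± 0.0539. S, the gene of Star, which carries EGFR ligands out of the ER, fell by 0.32 ± 0.0449, from 3495 ± 236 to 2792 ± 185. The pan-neuronal gene elav had 3733 and 3583 in males and 4021 and 3641 in females against 4106 to 5260, a difference of -0.30 ± 0.0476. The groups did not overlap for any of these 3, and none was called against Mut-101. CadN, a neuronal cadherin gene named after its values were seen, fell by 0.70 (508 to 633 units against 774 to 1184). Early R8 genes were not called, with ato at 0.09 and sens at 0.01.

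**Figure D5:**
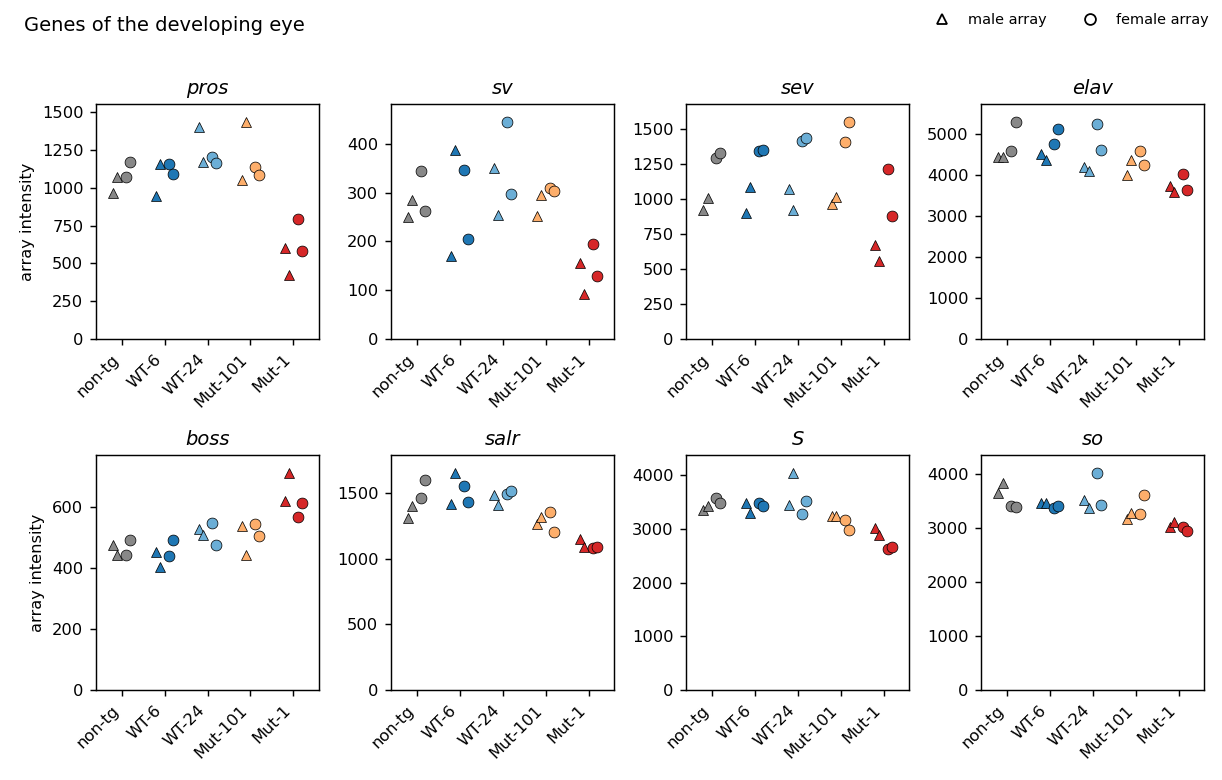
Array intensity (linear axes from 0) of 8 eye genes by line, with triangles for male and circles for female arrays. Mut-1 is lowest for pros, sv and sev while Mut-101 lies with the wild-type lines, and boss is highest in Mut-1.

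Genes of the furrow had small differences. Among genes that set eye fate or act at the furrow, 19 were tested, of which 6 fell and none rose (median -0.08), with hh, the signal that moves the furrow, at -0.16 ± 0.0286, E(spl)mdelta-HLH, a Notch target, at -0.26 ± 0.0486, and so at -0.21 ± 0.0474. Only hh among these was called against Mut-101 (-0.14). Of 23 cell cycle and replication genes CycE fell by 0.27 ± 0.0787 and Mcm3 and Orc2 rose by 0.23 and 0.27. These calls ended without 2, 2 and 8 of the arrays left out singly, and 1 rise and no fall of the list was called without the ring gland arrays.

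The chitin and cuticle list split. Of 30 tested members 5 rose and 11 fell, with a median of -0.18, with reb and Cda5 as its largest rises. The chitin deacetylase gene serp had 3754 to 4225 units in Mut-1 and 4555 to 6173 in wild-type discs and fell by 0.43 ± 0.044. Genes of chitin-binding proteins fell too, Gasp by 0.19 ± 0.0268 and obst-A by 0.35 ± 0.0701. All 6 tested tracheal markers fell (serp, verm, Gasp, obst-A, kni and knrl), 4 of them chitin genes of this list, and the tracheal marker sum was 17351 to 18163 on Mut-1 arrays and 20159 to 23321 on wild-type arrays. Of the 6 markers 4 were called lower against both wild-type lines. Without the ring gland arrays 3 of the 6 fell, without ring gland and fat body arrays 3, and with 1 mean per line 0. The part of tracheal tissue in these falls was not tested.

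Signalling and hormone lists were mixed. Of 10 insulin and TOR genes 3 rose and 2 fell. ImpL2, a secreted insulin-binding protein gene, had 7641 to 8772 units against 5563 to 6738 and rose by 0.39 ± 0.0779. The sugar-responsive factor gene sug rose by 0.40 ± 0.0718, and bmm, a fat lipase gene, fell by 0.83 ± 0.179, from 488 ± 68.9 to 273 ± 32.5 units. Of 20 ecdysone response genes Eip63E (0.32) and Edg78E (0.35) rose and usp, the receptor partner gene, fell by 0.13, while EcR was not called (-0.06). Without the ring gland arrays 2 of these genes rose and 0 fell, and without ring gland and fat body arrays 0 were called. Other probe sets of the gene br were lower at -0.557 and -0.502 (limma adjusted p = 0.0103 and 0.000391). Further br probe sets, at -0.302 and -0.075, were not called. Of 10 immune genes 1 rose, Dif (0.13), and its call ended without any 1 of 3 Mut-1 arrays. Dif did not reach a call against both wild-type lines.

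Markers of other tissues were read in the same fit. Of 7 fat body, 9 ring gland and 7 salivary gland genes tested 0 were called by limma, with medians of 0.39, -0.39 and 0.11. At an unadjusted p under 0.05 the ring gland genes spo and Start1 passed. Without the fat body arrays, however, 2 fat body genes rose and 1 ring gland gene fell. With the ring gland arrays left out as well, 1 fat body gene rose. Of 17 haemocyte markers NimC1 and lz fell, and lz also stands among the eye disc markers above. NimC1, a phagocytosis receptor gene, was at 200 to 228 units in Mut-1 and at 151 to 1276 in wild-type discs, and its call came from WT-6 alone (difference from WT-24 0.0008, limma adjusted p = 0.999). Of 14 brain and neuroblast genes 5 fell and none rose, including pros and elav, which the eye also uses, and the neuroblast gene dpn (-0.31 ± 0.0643). Of 11 glial genes moody, a receptor gene of the blood-brain barrier, rose by 0.45 ± 0.0753 and 4 fell, among them ana and the FGF receptor gene htl (-0.57 ± 0.0873), while the pan-glial gene repo was not called (0.08). Among 12 muscle genes sls fell by 0.32 ± 0.0807, with other probe sets at 0.13 and -0.08, and did not reach a call against both wild-type lines. The antennal list had salr as its only call of 10. The glial marker sum was 24468 to 28104 on Mut-1 and 27313 to 30918 on wild-type arrays, the brain sum 15900 to 17354 against 18269 to 20583, and their part in the falls was not tested.

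The response was then compared between the sexes. In males 857 probe sets were called (8.35%), 5.71% higher and 2.64% lower, and in females 727 (7.08%), 4.09% higher and 2.99% lower. All 991 probe sets called against both lines had the same sign in both sexes. Their choice by contrasts over both sexes largely set this in advance, so it is no evidence of a like response. A test of the difference between the sexes called 0 probe sets by limma, with 422 (4.11%) at an unadjusted p under 0.05. CG14545, for example, rose by 5.42 in males and 4.52 in females (limma adjusted p of the difference 0.986).

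Some differences set Mut-1 apart from Mut-101 without a matching difference from both wild-type lines. The gene tut was at 121 to 270 units in Mut-1, 1036 ± 56.4 in Mut-101 and 211 to 1651 in wild-type discs, with a difference of -2.52 ± 0.274 from Mut-101. It was called against WT-24 (-2.68) and not against WT-6 (-0.40), so its level differed between the wild-type lines as well. CG42565 stood at 259 ± 36.7 in Mut-1, 266 ± 51.9 in the wild-type lines and 541 ± 29.3 in Mut-101, and its difference of -1.07 from Mut-101 was called while that from the wild-type lines was not. The Alk receptor ligand gene jeb, a call that rested on 1 wild-type line, was at -1.08 ± 0.277 from the wild-type mean, was called against WT-24 and not against WT-6, and was not called against Mut-101 (-0.90 ± 0.32, limma adjusted p = 0.156). Its call against the mean ended without Mut-1 male replicate 2 or female replicate 2.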

How the data were processed

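Intensity values were deposited by the authors for 18952 probe sets on a linear scale, summarised with MAS5 per the submitters' processing notes; RNA had been amplified and biotin-labelled per the labels' protocols. Array means lay between 1198.9 and 1255.1, and the scaling target is not given in the sources used here. Genes were named from the platform annotation, with 13646 probe sets of a single gene (13543 matched by Entrez identifier), 402 of several genes, 4721 unnamed and 183 controls. The probe set of highest mean stood for each gene, and the upper 60% by mean over all arrays (10262, of which 8009 were named) were tested. A probe set that was dim in the other lines could thus enter the test through high values in Mut-1.

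Values were taken as log2 without a pseudocount. Line means with sex as a covariate were fitted over all 20 arrays with limma 3.58.1 in R 4.3.3 (lmFit, eBayes with trend, Benjamini-Hochberg adjustment), leaving 14 residual degrees of freedom. The difference between sexes came from a fit with a mean for each line and sex. The fit was tested on simulated data with independent noise for each array and no spread between lines beyond the changes put in. That test therefore cannot speak to differences between lines of the same transgene. The number of arrays limits the precision, with a median SE of 0.0658. The labels call the arrays biological replicates without saying how larvae were pooled, so p-values measure the spread between these samples.

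Genes named are the 10 largest rises and falls called against both wild-type lines, up to 3 called members of each list by smallest p, Hsc70-3, Ero1L, AsnS, daw, pros and elav, the 5 highest and lowest against Mut-101 and the 3 largest calls that rest on 1 wild-type line; of these 98, the text describes most. Other genes are marked as named after their values were seen, or are named to complete a count or a list. The comparison, the 25 pathway lists and 10 tissue lists were chosen with earlier results of these data known. Alternatives covered normalization, filter, pseudocount, replicate blocks, each wild-type line and each array left out, in 30 settings. Leaving out arrays with ring gland or fat body transcripts was chosen after seeing the data. Promoter sequences were not used here.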

Additional observations from a re-analysis of the deposited data

Results flagged for a closer look

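Among 294 groups of 4 arrays (98 genes in Mut-1, WT-6 and WT-24), 12 (4.08%) held an array far from the other 3, and chance flags about 1 in 20 groups. WT-6 female replicate 1, an array with ring gland transcripts, stood apart for 4 genes. It had 1460 units of Sil1 against 1689 to 1717 on the other arrays of its line, 3597 of ox against 3199 to 3251, 2864 of hh against 2815 to 2822, and 473 of htl against 561 to 579.

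In WT-24, male replicate 2 had 926 units of GstE6, where the others had 137 to 158. WT-24 male replicate 1 had 550 of Actbeta against 384 to 402, and 50.2 of CG9313 against 53.7 to 54.5. In WT-6, female replicate 2 had 2856 of TrpRS against 2577 to 2615, and male replicate 1 had 3677 of usp against 4008 to 4064.

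Within Mut-1, female replicate 1 had 706 units of Gadd45 against 578 to 583. Mut-1 male replicate 1 had 5237 of Sec22 against 5958 to 6031, and 1150 of salr against 1083 to 1089. For GstE6, Gadd45, Sec22 and salr the Mut-1 and wild-type arrays did not overlap with these arrays included.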

How the results depend on the processing

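Of 98 named genes 97 were called against the wild-type mean, which follows largely from their choice among the largest or strongest calls. Of these 83 kept their call without each of the 12 arrays in turn, a share that does not stand for all 1963 calls. Of 108 results on named genes, however, 77 lost their call with 1 mean per line, 49 with the block over description numbers, 35 without ring gland and fat body arrays and 15 without the ring gland arrays alone. Without single arrays, the calls ranged from 1346 to 1989 against the wild-type mean, 1078 to 1500 against WT-6, 1069 to 1606 against WT-24, 689 to 1026 against both lines, 254 to 403 against Mut-101 (254 without Mut-1 male replicate 2), 0 to 2 for the sexes and 61 to 80 beyond 2-fold. Without the ring gland arrays 747 were called against WT-24, 508 against both lines, 103 against Mut-101 and 1 between the sexes. Without ring gland and fat body arrays the counts were 711 against the mean, 871 against WT-6, 191 against WT-24, 158 against both and 74 against Mut-101, and fewer arrays entered these fits. With 1 mean per line, 112 were called against the wild-type mean and 2 against Mut-101, from a single pair of wild-type lines for the spread. A replicate block from the sample titles within each sex gave 1920, 1479, 1485, 955, 378, 0 and 68 in the same order of comparisons. The replicate block numbered as in the sample descriptions gave 502 against the mean, 432 against WT-6, 240 against WT-24, 189 against both and 35 against Mut-101. Arrays of the same title number did not vary together (correlations of -0.25 to 0.12). Over the description numbers 13 pairs of arrays correlated by -0.26 to 0.29, with 7 above 0.1, so neither numbering shows pairing throughout; that block links few arrays of the compared lines. The filter moved the calls beyond 2-fold from 69 to 109 with none, 31 with the upper 40% and 113 with all probe sets, and those between the sexes to 1 with no filter and 1 with all probe sets. NimC1 turned to 0.001 without line WT-6. The causes were not tested beyond what each setting removes. No detection calls were used, so folds over dim probe sets such as CG14545 and CG9313 are approximate.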

Other observations

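Single genes outside the lists are given here because of their values, so they stand for no group of genes. The trehalose transporter gene Tret1-1 was at 1500 ± 340 units (SD, n = 4) in Mut-1, 445 ± 75.5 (n = 8) in the wild-type lines and 1242 ± 192 in Mut-101, a rise of 1.74 ± 0.174. Pepck1, a gene of glucose synthesis from smaller molecules, was at 3486 ± 717 against 1099 ± 200 and rose by 1.66 ± 0.167, with 2757 ± 524 in Mut-101. Neither differed from Mut-101 by the limma test. The organic cation transporter gene Orct2 rose by 1.24 ± 0.072 and was above Mut-101, while Orct rose by 1.15 ± 0.177. The ABC transporter gene Mrp4 was at 632 ± 202 in Mut-1, 159 ± 67.3 in the wild-type lines and 184 ± 16 in Mut-101, and it rose by 2.04 ± 0.18. Its wild-type mean lay close to the lowest geometric mean tested, 157.8 units, so Mrp4 may have entered the test through its Mut-1 values. The mitochondrial carrier genes Tpc1 (1.28 ± 0.0856) and MME1 (1.10 ± 0.096), the calcium-binding ER protein gene scf (1.16 ± 0.0658) and the piRNA helicase gene spn-E (1.22 ± 0.0903) rose and were above Mut-101 as well. For each of these 9 genes the Mut-1 arrays were above all wild-type arrays.

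Among lower genes, chosen in the same way, the immunoglobulin-domain genes klg (921 ± 181 against 1672 ± 216), bdl and dpr10 fell by 0.87 ± 0.0992, by 0.86 ± 0.141 and by 0.57 ± 0.111. The FGF ligand gene ths, whose receptor gene htl fell too, was at 158 ± 9.25 against 239 ± 39 and fell by 0.58 ± 0.0659. The metalloprotease gene Mmp2 was at 1146 ± 28.8 in Mut-1, 1728 ± 118 in the wild-type lines and 1763 ± 115 in Mut-101, and the Sox factor gene SoxN at 1096 ± 237, 2018 ± 323 and 1983 ± 366. Of these 6 genes all but ths were also below Mut-101, and all but dpr10 had groups that did not overlap.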
